A study of Rattus norvegicus with 6 samples.

Results

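Connexins are the proteins of gap junctions, and their genes were examined in cultured cells of newborn rats. The 8 connexin genes Gja1, Gja4, Gja5, Gjb1, Gjb2, Gjb6, Gjc1 and Gjc3 were chosen by name, and 7 of them had a probe set annotated with a single gene symbol. Gjc1 was not analysed here. The 7 genes stood among 15 measured connexin genes and 18166 measured genes in all. Where a gene had several probe sets, the rule kept the one with the highest mean over the 6 arrays. Each of the 7 genes had 1 probe set, so no measured value entered that choice.

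The arrays held 3 NSCP samples (nerve-derived Schwann cell precursors, from the sciatic nerve) and 3 SKP samples (skin-derived precursors, from back skin), all from wild-type Sprague-Dawley pups. The 3 samples of each kind were separate isolates. The study's title concerns Schwann cell precursors in the regrowth of digit tips. NSCPs grew attached to laminin and poly-D-lysine with neuregulin-1β, forskolin and N2, and SKPs grew as spheres with FGF2, EGF and, as the run-on growth text was read, B27. Tissue, medium and growth form differ at the same time, so their effects cannot be told apart. Forskolin raises cAMP, a signal known to act on connexin genes and channels in several cell types.

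A gap junction is a cluster of channels that join the cytoplasm of neighbouring cells and let ions and small metabolites pass. Each cell contributes a ring of connexin proteins, and the family members differ in permeability, gating and tissue. In peripheral nerve, Schwann cells carry connexins in myelin, where channels link layers of the same cell, while fibroblasts of the dermis are joined mainly by the product of Gja1.

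Values are log2 expression levels made by the authors with RMA, and differences are NSCPs minus SKPs with the standard error (SE) of a limma fit across all genes. A gene is called higher or lower where its Benjamini-Hochberg adjusted p over all 18166 genes was under 0.05. No detection calls were used, and a level of 5.50 served as background, below which 95% of the 1344 measured olfactory or vomeronasal receptor genes had their mean. Levels of different probe sets are not ranked against each other. Across genes, Pearson's r was at least 0.984 within a kind of cell and at most 0.888 between kinds.

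The connexin genes divided into 2 with large differences in opposite directions and 5 that lay near background in both cell types. Gjc3 was 38.5-fold higher in NSCPs and Gja1 was 24.9-fold lower. Gjb1 and Gja5 were higher by under 1 on the log2 scale, and Gja4, Gjb2 and Gjb6 were not called. Of the 7 genes, 3 were called higher and 1 lower. Over all genes 43.7% were called, 25.2% higher and 18.6% lower, so the number of calls among 7 genes is near the background. With each array centred on its median, which adds 0.20 to every difference, 8148 of all genes were higher and 2704 lower, against 4569 and 3376 in the deposited values, and 5 of the 7 connexin genes were higher. The median difference was 0.30 over the 7 genes and 0.14 over all genes in the deposited values. With median centring it was 0.35 over all genes, so higher calls gained under that setting hold a shift common to all genes. Differences of at least 16-fold with a call, as for Gjc3 and Gja1, were found in 1.55% of all genes.

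Gjc3 encodes a connexin that, in rodents, is found in Schwann cells and oligodendrocytes, along the innermost layer of myelin that faces the axon. Its level in NSCP replicates 1, 2 and 3 was 10.56, 10.28 and 10.32, against 4.62, 5.45 and 5.28 in SKP replicates 1, 2 and 3. The NSCP arrays were close together and lay far above every SKP array, and all 3 SKP arrays lay below the background level. The means were 10.38 ± 0.15 in the NSCP arrays, against 5.12 ± 0.44 in the SKP arrays (SD, n = 3 each). The difference was 5.27 (SE 0.21, adjusted p = 3.16e-07 by limma), with a 95% interval from 4.78 to 5.76. It ranked 9 of 18166 genes from the highest difference down. Because the SKP mean was within background, the fold rests on a background level.

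Gja1 encodes connexin 43 (Cx43), the most widely distributed connexin, which joins fibroblasts, astrocytes and heart muscle cells. Its level was 7.55, 7.63 and 7.28 in NSCP replicates 1, 2 and 3, against 12.10, 12.002 and 12.28 in SKP replicates 1, 2 and 3. Every NSCP array lay below every SKP array, and the arrays within each group were within 0.35 of each other. The means were 7.49 ± 0.18 in the NSCP arrays, against 12.13 ± 0.14 in the SKP arrays (SD, n = 3 each). The difference was -4.64 (SE 0.14, adjusted p = 7.91e-08 by limma), with a 95% interval from -4.96 to -4.32. Unlike Gjc3 in SKPs, Gja1 in NSCPs stayed above background, so both ends of this difference were measured. A total of 130 genes had a more negative difference.

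**Figure D1:**
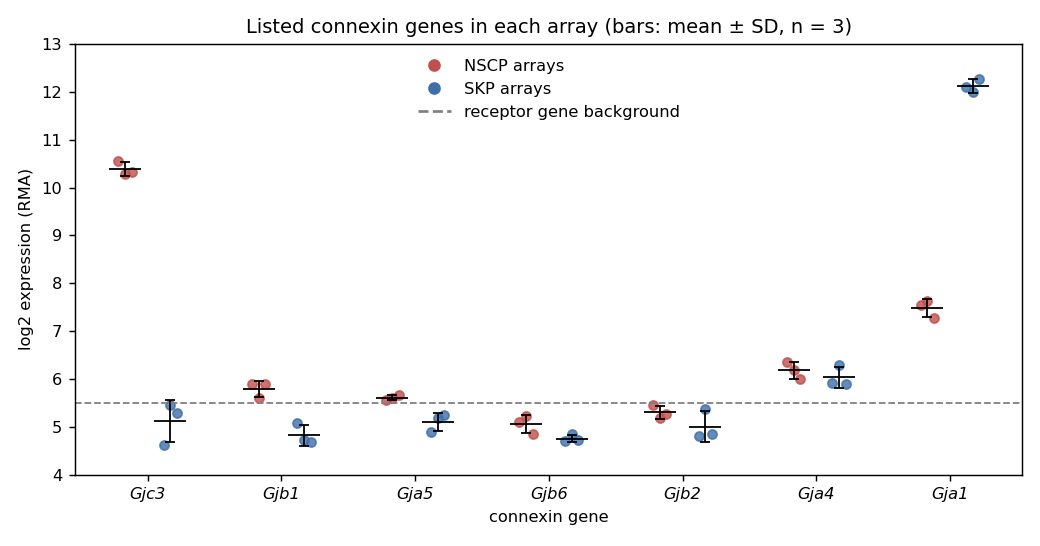
Log2 expression of the 7 measured connexin genes in each array, NSCP arrays in red and SKP arrays in blue, with mean ± SD (n = 3); the dashed line is the receptor gene background of 5.50. Gjc3 is high in the 3 NSCP arrays and Gja1 in the 3 SKP arrays, and the other 5 genes lie within about 1 of the background.

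Promoters are shown for Gja1 and Gjc3, which had the largest differences, and for Gjb1, the connexin gene of myelinating Schwann cells. Each sequence is the 250 bases before the gene's start, 5′ to 3′ on the gene's strand, from RefSeq (build GRCr8). RefSeq's table matched 7 of the 8 genes, and Gjb6 had several starts. Capitals mark matches, on both strands, to AP-1 (TGANTCA), a GC box (GGGCGG) or a Sox-type motif (ACAAAG or ACAATG). The 3 windows are Gja1 at chr20:36302314-36302563 (plus strand), Gjc3 at chr12:22024568-22024817 (minus strand) and Gjb1 at chrX:70541595-70541844 (plus strand).
Gja1: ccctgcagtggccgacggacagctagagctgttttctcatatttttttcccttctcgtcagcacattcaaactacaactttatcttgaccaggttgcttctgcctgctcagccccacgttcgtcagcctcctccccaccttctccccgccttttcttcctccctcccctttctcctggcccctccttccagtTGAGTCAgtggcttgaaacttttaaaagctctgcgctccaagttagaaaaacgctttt
Gjc3: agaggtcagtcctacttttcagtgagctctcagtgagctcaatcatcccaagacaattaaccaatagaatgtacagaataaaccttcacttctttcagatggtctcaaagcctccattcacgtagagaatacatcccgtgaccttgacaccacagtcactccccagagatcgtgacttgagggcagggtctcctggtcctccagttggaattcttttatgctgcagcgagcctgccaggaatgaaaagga
Gjb1: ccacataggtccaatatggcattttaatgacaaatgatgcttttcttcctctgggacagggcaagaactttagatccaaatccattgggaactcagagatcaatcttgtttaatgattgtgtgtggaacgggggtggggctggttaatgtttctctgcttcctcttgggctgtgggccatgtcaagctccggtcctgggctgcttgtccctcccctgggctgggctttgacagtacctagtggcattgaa

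The window of Gja1 held 1 match, the AP-1 letters TGAGTCA with their first base at position -58, counted from the start. Among 33469 RefSeq promoter windows of the same length, 6.34% held an AP-1 match. The windows of Gjc3 and Gjb1 held none of the motifs. Each window belongs to a single annotated start, and which start these cells use was not examined. Matches to the GC box were found in 30.5% of all windows, ACAAAG in 16.3% and ACAATG in 11.1%. The other members differed from these, with a GC box match in the windows of Gja4, Gja5, Gjb2 and both starts of Gjb6, and an ACAAAG match at 1 start of Gjb6. GC content was 51.2% for Gja1, 47.2% for Gjc3 and 49.2% for Gjb1, against a median of 51.2% over all windows.

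Gjb1 encodes connexin 32 (Cx32), which forms channels through the uncompacted layers of Schwann cell myelin and is mutated in X-linked Charcot-Marie-Tooth neuropathy. Its level was 5.89, 5.61 and 5.90 in NSCP replicates 1, 2 and 3, against 5.07, 4.72 and 4.68 in SKP replicates 1, 2 and 3. The groups did not overlap, as in 56.6% of all genes, and the NSCP arrays were just above background while the SKP arrays were below it. The difference was 0.98 (SE 0.15, adjusted p = 9.63e-04 by limma), a 1.97-fold higher level in NSCPs that rests on a background level. In limma's treat, a test for differences beyond 2-fold, Gjb1 did not pass and Gjc3 and Gja1 did.

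Gja5 encodes connexin 40 (Cx40), a connexin of arterial endothelium and atrial muscle. Its level was 5.56, 5.61 and 5.67 in NSCP replicates 1, 2 and 3, against 4.90, 5.19 and 5.25 in SKP replicates 1, 2 and 3. The groups did not overlap, and the NSCP mean of 5.61 ± 0.05 (SD, n = 3) was barely above background. The difference was 0.51 (SE 0.13, adjusted p = 0.0140 by limma). The call was lost without NSCP replicate 3 (adjusted p = 0.0518) and without SKP replicate 1 (adjusted p = 0.0511).

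Gja4 encodes connexin 37 of endothelium and oocytes. Its level was 6.36, 6.19 and 6.002 in NSCP replicates 1, 2 and 3, against 5.92, 6.29 and 5.90 in SKP replicates 1, 2 and 3. The groups overlapped and both means lay above background. The difference of 0.14 was not called (adjusted p = 0.474 by limma), with a 95% interval from -0.21 to 0.50. The difference was 0.35 with median centring, also not called (adjusted p = 0.101).

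Gjb2 and Gjb6 encode the connexins 26 and 30 (Cx26, Cx30), which are known from the epidermis and the inner ear. Their genes are neighbours on chromosome 15, with 0 protein-coding genes between them. The level of Gjb2 was 5.46, 5.19 and 5.27 in NSCP replicates 1, 2 and 3, against 4.80, 5.37 and 4.85 in SKP replicates 1, 2 and 3. All 6 values lay below background, and the groups overlapped through SKP replicate 2. The difference of 0.30 was not called (SE 0.17, adjusted p = 0.196 by limma). Gjb2 was called higher without SKP replicate 2 (0.48, adjusted p = 0.0284), with array weights (0.38, 0.0330) and with median centring (0.50, 0.0472). The level of Gjb6 was 5.11, 5.22 and 4.84 in NSCP replicates 1, 2 and 3, against 4.71, 4.84 and 4.72 in SKP replicates 1, 2 and 3. These values were below background as well, and the difference of 0.30 was not called (SE 0.13, adjusted p = 0.105 by limma). With median centring Gjb6 was called higher (0.50, adjusted p = 0.0142).

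The spread between replicates differed among the members. The SD pooled over both groups was 0.33 for Gjc3, which is wider than in 88.2% of all genes, and most of it came from SKP arrays below background. It was 0.16 for Gja1 and 0.14 for Gja5, below the median of 0.18 over all genes.

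Connexin genes outside the 8 were examined to place the members in the family. Of the other 12 connexin genes 8 were measured, and 0 of them were called by limma in the fit with all arrays, with 1 gene, Gja3, at an unadjusted p under 0.05. Their differences ran from -0.17 for Gjd3 (0.04 with median centring) to 0.34 for Gja10, and 6 of the 8 had means within background in both groups. Gja10 was called higher without SKP replicate 1 (adjusted p = 0.0376), with median centring (0.0125) and with array weights (0.0429). Gja3, a lens connexin that lies near Gjb2 and Gjb6 on chromosome 15, stood at 4.92 ± 0.05 in the NSCP arrays, against 4.64 ± 0.06 in the SKP arrays (SD, n = 3 each; adjusted p = 0.0744, and 0.00618 with median centring). Gjb5 and Gjd2 were above background in both groups. Gjb5, a connexin of skin and placenta, stood at 6.12 ± 0.13 in the NSCP arrays, against 6.02 ± 0.16 in the SKP arrays (SD, n = 3 each). Gjd2, which encodes connexin 36 (Cx36) of electrical synapses, stood at 5.92 ± 0.17 in the NSCP arrays, against 5.63 ± 0.14 in the SKP arrays (SD, n = 3 each). Its difference of 0.29 was not called (adjusted p = 0.121), but was called higher with renewed quantile normalization (adjusted p = 0.0458), median centring (0.0151) and array weights (0.0312). Gja6, Gjd4 and Gje1 had group means between 3.48 and 3.79 in both cell types. Over the 15 measured connexin genes 4 were called, or 26.7%, against 43.7% of all genes. Of the 15, 8 had means within background in both groups. The 4 called genes were among the 7 with NSCP means above background. Among all genes above background in a group, 55.6% were called, so the low share over the 15 is not read as a trait of the family.

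**Figure D2:**
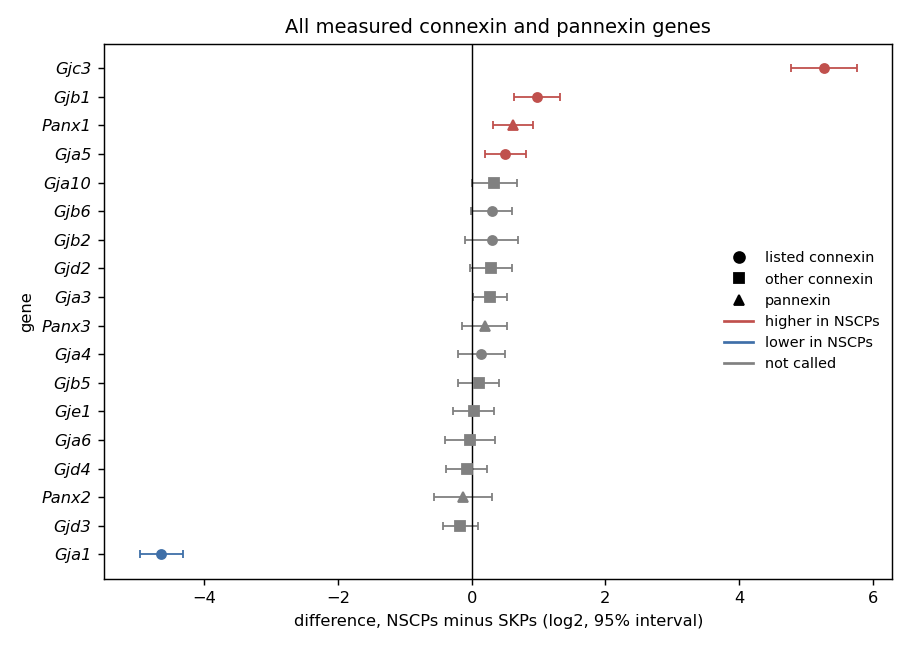
Difference between NSCPs and SKPs (log2, horizontal axis) with its 95% interval for the 15 measured connexin genes and 3 pannexin genes, coloured by call. Gjc3 at 5.27 and Gja1 at -4.64 stand far from the other genes, whose differences lie between -0.17 and 0.98.

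Pannexins form channels that release ATP from single cells and, in mammals, seldom pair into gap junctions. Panx1 was higher in NSCPs at 7.04, 7.18 and 6.91, against 6.29, 6.45 and 6.54 in SKP replicates 1, 2 and 3. The groups did not overlap, and the difference was 0.62 (SE 0.13, adjusted p = 0.00479 by limma). Panx2 (-0.13, or 0.08 with median centring) and Panx3 (0.19) were not called, and with median centring Panx3 was called higher (0.40, adjusted p = 0.0356).

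Genes whose products bind connexins, carry them or modify them went both ways. Of 27 listed partners 24 were measured, 8 were higher and 3 lower in NSCPs, and 13 were not called. The share called was 45.8%, near the 43.7% over all genes, and the median difference was -0.02. All 24 had means above background in both groups, and of all genes above background in a group 55.6% were called. Ezr, which encodes ezrin, a linker of membrane proteins to actin, was 8.36-fold higher in NSCPs (10.62 ± 0.21 against 7.55 ± 0.06, SD, n = 3 each). Cdh2, the gene of N-cadherin, a junction partner of connexins, was 4.94-fold higher. Its level was 9.99, 9.84 and 9.97 in NSCP replicates 1, 2 and 3, against 8.41, 6.51 and 7.95 in SKP replicates 1, 2 and 3, so the SKP arrays were widely spread but did not reach the NSCP arrays. Mapre1, which encodes a microtubule end protein that guides connexin delivery, was higher by 1.15. The kinase genes Src (1.07) and Prkca (0.79), whose products phosphorylate connexin 43, were higher too.

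Caveolin genes and a connexin 43 binding protein gene were lower. Ccn3, which encodes a matricellular protein known to bind the tail of connexin 43, was 13.3-fold lower in NSCPs (6.21 ± 0.26 against 9.95 ± 0.46, SD, n = 3 each). Cav1, the gene of the membrane scaffold caveolin-1, was 12.9-fold lower (6.93 ± 0.21 against 10.62 ± 0.37, SD, n = 3 each), and Cav2 was lower by a difference of -2.03. The scaffold gene Tjp1, whose product ZO-1 binds the end of connexin 43, was 11.07 ± 0.17 in the NSCP arrays, against 10.94 ± 0.11 in the SKP arrays (SD, n = 3 each). Its difference of 0.13 was not called (adjusted p = 0.456 by limma). Nedd4, a ubiquitin ligase gene of connexin 43 turnover, had a difference of -0.01 in the deposited values, whose sign turned to 0.19 with median centring. Tjp1 and Nedd4 were named after their values were seen.

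Transcription factors of connexin promoters, or of tissues that use connexins, were measured in all 20 listed cases, with 4 higher, 6 lower and 10 not called in NSCPs. The 10 called of 20 are near the 43.7% over all genes, and the median difference was 0.13. Sox10 and Egr2, both known to activate Gjb1 in Schwann cells, differed in opposite directions. Sox10 was higher in NSCPs, at 10.30, 10.72 and 10.55 against 7.67, 7.26 and 7.34 in SKP replicates 1, 2 and 3. Egr2 was lower in NSCPs, at 9.69, 9.99 and 9.65 against 11.53, 11.78 and 11.75 in SKP replicates 1, 2 and 3. The arrays of the groups did not overlap for either gene. Pou3f1, a factor gene of promyelinating Schwann cells, was 20.6-fold higher, with an SKP mean within background.

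Among AP-1 genes, which are known to act on the Gja1 promoter, the level of Jun was 10.28 ± 0.19 in the NSCP arrays, against 10.05 ± 0.07 in the SKP arrays (SD, n = 3 each; adjusted p = 0.201 by limma). Jun was called higher with median centring (0.43, adjusted p = 0.0248). Fos had a difference of 0.39 (adjusted p = 0.0801). Fos was called higher without SKP replicate 1 (adjusted p = 0.0150), with median centring (0.0119) and with array weights (0.0141). Jun and Fos were named after their values were seen. Junb was lower by a difference of -0.74 (adjusted p = 0.0392). Its call was lost without SKP replicate 1 (a difference of -0.44, adjusted p = 0.0616) and without each of NSCP replicates 1, 2 and 3 (adjusted p = 0.116, 0.0674 and 0.0903), and with the replicate block (0.0587), renewed quantile normalization (0.0938), median centring (0.0763) and adjustment over all probe sets (0.0757). The T-box gene Tbx2, whose product is known to repress Gja1, was higher by 0.68. Tbx3, a related repressor gene named after its value was seen, was lower by a difference of -0.50 (adjusted p = 0.0290), a call lost with median centring (adjusted p = 0.140), with adjustment over all probe sets (0.0581) and without NSCP replicate 1 (0.0577), NSCP replicate 3 (0.101), SKP replicate 2 (0.0849) or SKP replicate 3 (0.0940). Tbx18 (-2.96, NSCP mean within background) was lower too. Runx2 (-2.75) and Klf4 (-1.05) were lower, and Foxo1 (0.82) was higher.

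**Figure D3:**
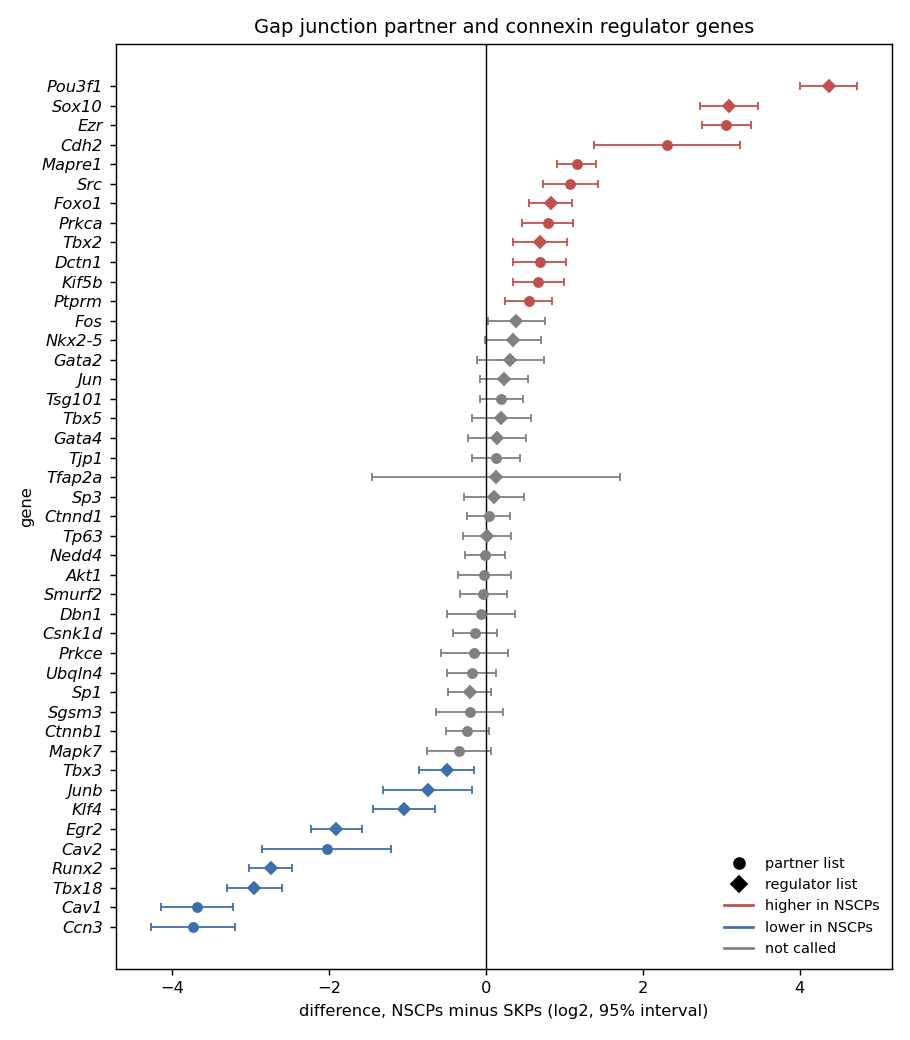
Difference between NSCPs and SKPs (log2, horizontal axis) with its 95% interval for 24 partner genes (circles) and 20 regulator genes (diamonds), coloured by call. Pou3f1, Sox10 and Ezr lie above 3, Cav1 and Ccn3 lie below -3, and the interval of Tfap2a is the widest, with SKP values of 9.32, 6.004 and 8.50.

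Markers were examined to check the labels and the other cells that the connexins could come from. All 12 measured Schwann lineage markers were higher and all 12 fibroblast markers lower in NSCPs. The defining markers were Erbb3 at 11.35 ± 0.09 in the NSCP arrays, against 6.57 ± 0.21 in the SKP arrays, and Pdgfra at 5.44 ± 0.02 in the NSCP arrays, against 12.33 ± 0.01 in the SKP arrays (SD, n = 3 each). Col1a1, the other defining fibroblast marker, remained at 11.80 ± 0.18 in NSCPs (SD, n = 3). Gja1 differed in the same direction as the fibroblast list, whose mean per array was 6.99 to 7.32 in NSCPs and 11.66 to 11.75 in SKPs. Gjc3 differed in the same direction as the Schwann list, at 10.86 to 11.00 in NSCPs and 7.42 to 7.57 in SKPs. A direction shared between the kinds of culture does not show which cells held the RNA. In bulk samples, fewer cells of a type and less RNA per cell cannot be told apart.

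Macrophage markers as a list were lower in NSCPs, as Gja1 was. Of 14 such genes 12 were lower and 0 higher in NSCPs by limma, and at an unadjusted p under 0.05 the count of higher genes was 0 too. Their mean per array was 5.13 to 5.27 in NSCPs, against 10.16, 9.13 and 9.46 in SKP replicates 1, 2 and 3. The defining marker Csf1r was 5.72 ± 0.37 in the NSCP arrays, against 8.97 ± 0.79 in the SKP arrays (SD, n = 3 each). The leukocyte gene Ptprc, the other defining marker, was 10.83, 8.91 and 9.90 in SKP replicates 1, 2 and 3, and within background in NSCPs. Gja1 varied by 0.28 over those SKP arrays while Ptprc varied by 1.92. The part of macrophages in the Gja1 difference was not tested.

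Of the marker genes of 4 further cell types, 41.7% were called for keratinocytes, 30.0% for endothelium, 37.5% for mural cells and 57.1% for melanocytes, against 43.7% of all genes. Keratinocytes use Gjb2 and Gjb6. Their 12 measured markers averaged 5.32 to 5.67 per NSCP array and 5.37 to 5.48 per SKP array, with 2 higher and 3 lower. The defining marker Krt14 was within background in both groups (5.48 ± 0.21 in the NSCP arrays, against 5.32 ± 0.32 in the SKP arrays, SD, n = 3 each). Cdh1 (7.55 in NSCPs, 6.47 in SKPs) and Epcam were higher, Epcam with both means within background. Perp (6.21 in NSCPs, 7.27 in SKPs), Dsc3 and Dsg3 were lower, Dsc3 and Dsg3 with NSCP means within background. The calls of Cdh1 and Dsg3 were lost in several alternatives, as with adjustment over all probe sets (adjusted p = 0.0633 and 0.0572 by limma). Endothelial markers, of cells that use Gja4 and Gja5, averaged 5.17 to 5.26 per NSCP array and 5.01 to 5.15 per SKP array, and 2 of 10 were higher and 1 lower. The defining marker Cdh5 was within background in both groups (4.87 ± 0.08 in the NSCP arrays, against 5.04 ± 0.22 in the SKP arrays, SD, n = 3 each). Tek was 3.76-fold higher (6.80 ± 0.10 in NSCPs, 4.89 ± 0.20 in SKPs, SD, n = 3 each), with its SKP mean within background. Emcn was higher with both means within background, and Esam (5.63 in NSCPs, 6.30 in SKPs) was lower. Mural markers averaged 5.96 to 6.02 per NSCP array and 6.38 to 6.64 per SKP array, and 3 of 8 were lower and 0 higher by limma, and an unadjusted p under 0.05 gave 0 higher too. The lower genes were Cspg4, Notch3 and Rgs5, the last with its NSCP mean within background. Cspg4, which encodes the proteoglycan NG2, was 7.40-fold lower, at 5.86 ± 0.09 in the NSCP arrays, against 8.75 ± 0.31 in the SKP arrays (SD, n = 3 each). The contractile gene Tagln was 9.06 ± 0.26 in the NSCP arrays, against 8.83 ± 0.42 in the SKP arrays (SD, n = 3 each). The defining marker Myh11 was just above background, at 5.91 ± 0.15 in the NSCP arrays, against 5.76 ± 0.05 in the SKP arrays (SD, n = 3 each). Myh11 was not called (adjusted p = 0.342 by limma), but was called higher with median centring (0.36, adjusted p = 0.0422). The other defining marker, Des, was within background in both groups. Melanocyte markers averaged 5.29 to 5.44 per NSCP array and 5.37 to 5.73 per SKP array, with 2 of 7 higher and 2 lower. Mitf, a pigment cell factor gene also used by macrophages, was 5.40-fold lower, at 7.80 ± 0.26 in the NSCP arrays, against 10.24 ± 0.17 in the SKP arrays (SD, n = 3 each). The defining marker Mlana was lower by a difference of -1.22, with its NSCP mean within background and its SKP mean of 5.59 barely above it. Tyrp1 (1.40) and Dct (1.11) were higher, both with SKP means within background, and Tyr was within background in both groups. In these lists, genes other than the defining markers were named after their values were seen. Krt5 and Pecam1 were not analysed here.

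**Figure D4:**
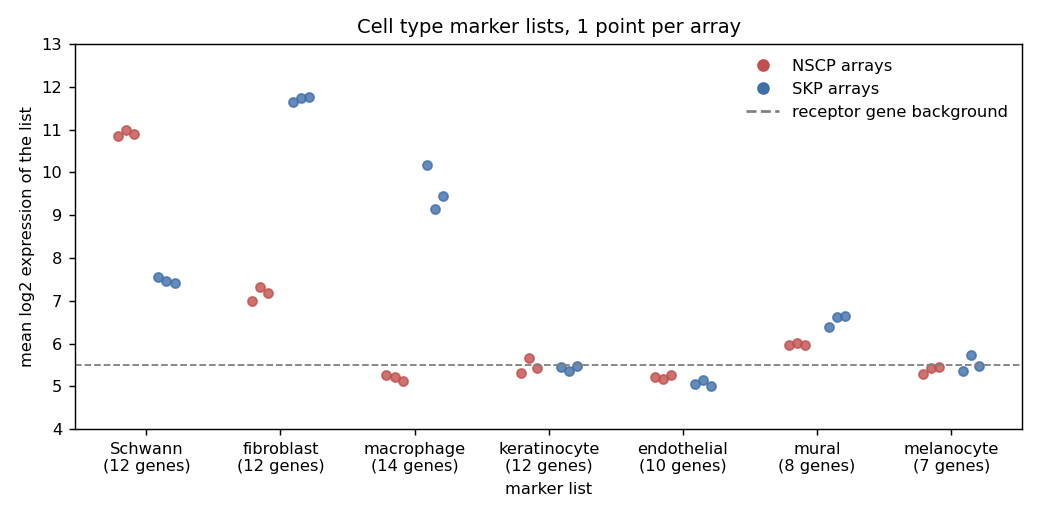
Mean log2 expression of 7 marker lists, 1 point per array, NSCP arrays in red and SKP arrays in blue; the dashed line is the receptor gene background of 5.50. Schwann markers are high in NSCPs, fibroblast and macrophage markers are high in SKPs, and keratinocyte, endothelial and melanocyte lists lie near background in both.

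The genes whose profiles were most like those of the called members were found by the root mean square distance of gene-centred values over the 6 arrays. For Gjc3 these were Sostdc1 (distance 0.20), Nefl (0.22) and Slc38a1 (0.23), with differences of 5.56, 5.04 and 5.31. For Gja1 they were Lrrn4cl (0.09), Epha7 (0.11) and Col6a2 (0.11), with differences of -4.66, -4.71 and -4.63. For Gjb1 they were Them4 (0.07), Rad51b (0.08) and Txndc16 (0.08), and for Gja5 they were Faah (0.03), Pdhb (0.03) and Swi5 (0.04). All these profiles hold the group difference of their member, and nothing further is read from the likeness.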

How the data were processed

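RNA from 3 NSCP and 3 SKP cultures was measured on 1 array each. Total RNA was turned into cDNA with a whole-transcript kit, per the labels' protocols. The deposited log2 values, 1 per probe set and array, are RMA output of the authors (oligo package), per the submitters' processing notes, which name no version. Quantile normalization, part of RMA, would hide a shift of all genes. The table held 36685 probe sets, of which 18511 had 1 gene symbol, 575 several and 17599 none here. By Entrez ID 18394 symbols were matched to RefSeq. For 291 genes with several probe sets the one with the highest mean was kept, leaving 18166 genes.

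Groups were compared with limma 3.58.1 in R 4.3.3 (lmFit, eBayes, 2-sided, Benjamini-Hochberg over all genes), which was tested on simulated data. There 6% of differences of 0.5 were recovered, 60% of those of 1 and 100% of those of 2 and 4. Far fewer genes differed in the simulated data than in the arrays, so these shares do not carry over to the arrays. The number of arrays limits the precision. Python 3.11.15 and matplotlib 3.10.9 gave the figures. The connexin genes, the partner, regulator and marker lists and the tests were chosen with earlier results of these data known. Named were all connexin and pannexin genes described, up to 5 called genes per direction of the partner and regulator lists, and defining markers. Named also were the 3 genes most like each called member, without provisional symbols. Alternatives covered each array left out, the replicate number as a block, scaling, filters on dim genes, probe sets, priors, array weights and thresholds.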

Additional observations from a re-analysis of the deposited data

How the results depend on the processing

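Gjc3 and Gja1 kept their direction and their call in all 17 alternatives, with differences from 5.02 to 5.47 and from -4.84 to -4.43. Median centring adds 0.20 to every difference, and the median difference over all genes moved from 0.14 to 0.35. The share of higher calls among all called genes rose from 57.5% to 75.1%. Higher calls gained under median centring hold this common shift. With median centring 5 listed connexin genes were higher, Gjb2 (0.50) and Gjb6 (0.50) included, and 9 of the 15 measured connexin genes were called. The filters at the median of all probe sets and at the receptor background each left 1 listed gene higher and 2 connexin genes called, because dim genes were not tested. With treat 1 listed gene was higher, 2 connexin genes were called, and 1758 of all genes passed. Array weights gave 7 called connexin genes, with 10426 of all genes called against 7945 in the main values. Leaving out each array in turn gave 2 to 4 listed genes higher, 3 to 5 connexin genes called and 6341 to 7513 genes called in all. With the replicate number as a block, 7681 genes were called, and 3 listed connexin genes were higher and 1 lower, as without it. Deviations of same-numbered arrays correlated at 0.04, 0.05 and 0.03 across genes, each array best with its own number, a hint from the data and not the design. Small calls near background, as for Gja5, are the ones that the number of arrays and the signal over background limit.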
